A study of Homo sapiens with 4 samples.

Results

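The members described here are the zinc finger genes with ZNF symbols that lie off chromosome 19, and they were examined in MDA-MB-231 Fluc cells. A member is a row of the deposited table whose symbol consists of ZNF, a number and at most 1 further letter, and whose chromosome is not 19. Of 13957 genes in the table, 420 have such a symbol, of which 204 lie on chromosome 19 and 216 are members, 1.55% of the table. The rule uses names and positions only. MDA-MB-231 cells were derived from a breast cancer of the triple-negative type, and the Fluc derivative carries a firefly luciferase reporter. The 4 samples comprise 2 exposed for 2 h to cordycepin at 50 μM and 2 exposed for 2 h to the vehicle DMSO, all from the same cell line and with no genetic change between the groups. Cordycepin is 3′-deoxyadenosine, an adenosine analogue that affects polyadenylation and growth factor signalling.

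For each gene the table gives the mean log2 CPM (read counts per gene relative to library size, on a log2 scale) over all 4 libraries, a length in bases and a position in GRCh38. As this mean joins treated and untreated libraries, it has no SD and no n per group, and the depth of each library is unknown. The remaining columns hold the authors' own comparison of cordycepin with DMSO and were not used. Whether a member rose, fell or stayed level under cordycepin is therefore not described, and what follows concerns the genes' level, position and sequence. To compare genes of different length, the level of a gene was taken as its mean log2 CPM minus log2 of its length in kilobases, which is called log2 CPM per kb. All differences between sets of genes below are descriptions of medians over genes, without a test, since each value is a mean over all libraries. In bulk RNA, fewer cells with a transcript and less of the transcript per cell cannot be told apart.

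Most ZNF genes encode proteins with tandem C2H2 zinc fingers. In each finger a pair of cysteines and a pair of histidines hold a zinc ion, and residues on the finger's helix contact DNA, so that a row of fingers reads a row of bases. Neighbouring fingers are often joined by a conserved linker that begins after the last histidine. Many of these proteins also carry a KRAB domain, which recruits TRIM28 (KAP1) and through it SETDB1, HP1 proteins and histone deacetylases, and which silences transposable elements in particular. Genes of this kind multiplied by local duplication, and the largest clusters are on chromosome 19. The members are thus those genes of the table outside that chromosome that carry a ZNF symbol. Zinc finger genes with other names are not among them. The members include proteins with other functions, such as ribosome quality control, mitosis and RNA processing.

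To show the unit that is counted below, the coding DNA of a C2H2 finger and the linker position after it is given for 7 members. They are ZNF664, with the highest level of any member that has fingers, ZNF24, a SCAN domain protein, ZNF282, which has the highest level among members with a KRAB-like string, ZNF107 and ZNF10 from clusters on chromosomes 7 and 12, ZNF483, with the lowest level of all members, and ZNF462, which has many fingers and no linker of the searched form. Each run of 84 bases is written 5′ to 3′ on the coding strand, with the codons of the 2 cysteines and the 2 histidines in capitals, and the last 21 bases follow the second histidine codon. The first finger with a linker was taken, or for ZNF462 the first finger with the same spacing. All 7 lie within a single coding exon of the canonical GENCODE transcript, and the build is GRCh38 (hg38).
ZNF664, chr12:124012409-124012492, plus strand: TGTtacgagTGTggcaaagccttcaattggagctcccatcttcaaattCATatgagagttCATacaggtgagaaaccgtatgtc
ZNF24, chr18:35337499-35337582, minus strand: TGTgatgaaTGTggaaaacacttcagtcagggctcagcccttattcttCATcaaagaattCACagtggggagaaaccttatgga
ZNF282, chr7:149224357-149224440, plus strand: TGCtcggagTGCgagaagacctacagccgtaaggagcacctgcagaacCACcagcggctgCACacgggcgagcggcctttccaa
ZNF107, chr7:64706704-64706787, plus strand: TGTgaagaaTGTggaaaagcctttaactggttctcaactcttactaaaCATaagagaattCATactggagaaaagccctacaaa
ZNF10, chr12:133156045-133156128, plus strand: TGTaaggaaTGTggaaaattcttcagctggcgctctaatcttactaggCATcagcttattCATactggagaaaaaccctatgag
ZNF483, chr9:111542256-111542339, plus strand: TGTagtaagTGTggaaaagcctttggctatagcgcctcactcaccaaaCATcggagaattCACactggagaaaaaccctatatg
ZNF462, chr9:106925326-106925409, plus strand: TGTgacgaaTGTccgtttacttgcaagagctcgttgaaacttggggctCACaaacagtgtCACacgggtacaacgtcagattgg

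The capitals fall at the same positions in all 7 runs, while the bases between them differ. ZNF107 and ZNF10, which lie on different chromosomes, shared 64 of 84 bases, the most of any pair. ZNF664 at the top of the range of levels and ZNF483 at the bottom shared 53 of 84. ZNF462 was least like the others, with 28 identical bases against ZNF483 and 38 against ZNF107. These counts include the capitals and the linker position, by which the runs were chosen, and ZNF462 was chosen as lacking that linker. Reads of 75 bases can match more than 1 gene where such runs are longer. In 45 of the 216 members (20.8%), over 1% of the 75-base windows of the canonical transcript also occurred in the canonical transcript of another gene. This count is not one of similar fingers alone. It includes genes annotated over the same exons, such as ZNF511-PRAP1 for ZNF511.

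The members had low levels (the plot of levels by group of genes). Their median level was 0.78 log2 CPM per kb, with 25th and 75th percentiles of -0.02 and 1.70, whereas ZNF genes on chromosome 19 had a median of 0.32 and all other genes a median of 2.49. Among genes above the lowest 25% of mean log2 CPM, the difference between members and ZNF genes on chromosome 19 was 0.24 in place of 0.45. The 3 sets overlapped widely. Of the members, 188 (87.0%) were below the median level of the whole table, 119 (55.1%) were in its lowest 25% and 2 were in its highest 25%. On chromosome 19, 138 of 204 ZNF genes (67.6%) were in the lowest 25% and 2 in the highest. Together the members made up 0.381% of the summed CPM of the table, compared with 1.55% of its genes. Before scaling by length, the medians of mean log2 CPM were 3.30 for members, 2.85 for ZNF genes on chromosome 19 and 4.64 for all other genes.

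**Figure D1:**
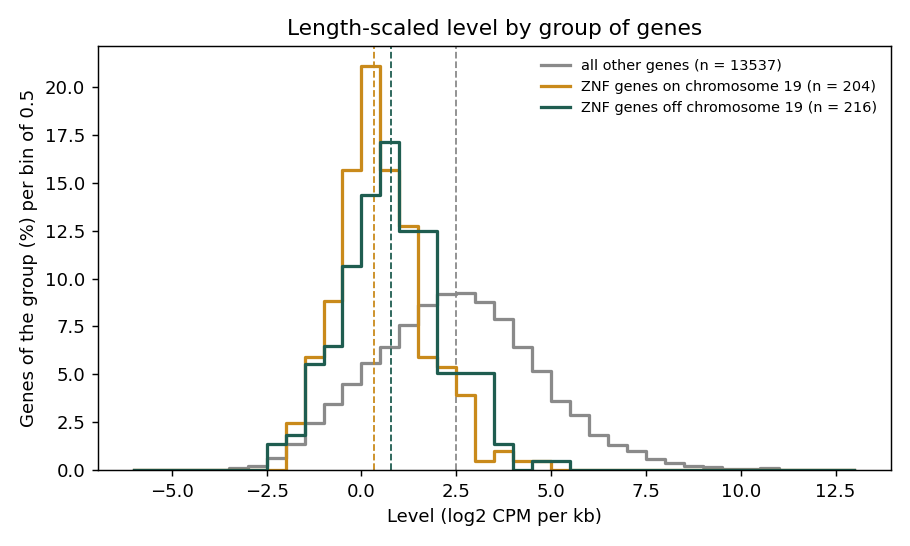
Share of the genes of each group (%) per bin of 0.5 against level (log2 CPM per kb), for 216 ZNF genes off chromosome 19, 204 on chromosome 19 and 13537 other genes, with dashed lines at the medians of 0.78, 0.32 and 2.49. Both ZNF groups sit to the left of the other genes and overlap each other over most of their range.

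The highest level belonged to ZNF185 on chromosome X (152914442 to 152973480), with 5.32 log2 CPM per kb and a mean log2 CPM of 7.58. ZNF185 is a LIM domain protein of the actin cytoskeleton, and no C2H2 finger was found in it. ZNF664 on chromosome 12 followed with 4.88 and 9 fingers. These are the 2 members in the highest 25% of all genes, and a gap of 1.13 separated ZNF664 from the third, ZNF395, at 3.75. ZNF598, a ubiquitin ligase that acts on collided ribosomes, had a level of 3.59. ZNF622, which acts in the maturation of the large ribosomal subunit, had 3.55. ZNF703 on chromosome 8, a transcriptional co-repressor amplified in some luminal breast tumours, had 3.50, and ZNF207 (BuGZ), which acts in spindle assembly, had 3.47. The list of the 10 highest was completed by ZNF22 (3.36), ZNF511 (3.30) and ZNF367 (3.26). No KRAB-like string was found in any of these 10, and 7 of them have at most 3 fingers with no linker of the searched form.

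At the other end, ZNF483 on chromosome 9 had the lowest level, -2.35 log2 CPM per kb, followed by ZNF704 with -2.27 and ZNF23 with -2.20. ZNF287 had -1.81, and ZNF521, a transcriptional co-regulator of early haematopoietic cells, had -1.69. ZNF483 and ZNF704 have large lengths in the table, 16723 and 15008 bases, and mean log2 CPM of 1.71 and 1.64. For 159 of 216 members this length equalled the union of all annotated exons of the gene, which can exceed the length of any single transcript. ZNF23 had the lowest mean log2 CPM of all members, 0.66. The lowest value was 0.556 among ZNF genes on chromosome 19 and 0.559 among all other genes. With no row below these values, the lowest level that a gene could have depended on its length in the table. ZNF23, ZNF287 and ZNF521 had lengths of 7285, 7997 and 6225 bases, between the members' 25th and 75th percentiles of 4008 and 8332. In GENCODE, 45.9% of the exon bases of ZNF23 also lie in exons of another gene on the same strand. Of the 75-base windows of its canonical transcript, 97.1% occur in another gene, most often in one that overlaps it there. The same holds for ZNF410, an activator of CHD4, which had a level of -1.57 and shared 39.1% of its exon bases and 82.7% of its windows. How reads that fall in 2 genes were counted is not given in the sources used here, and the part of this overlap in these low values was not tested.

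Exon overlap was not confined to low members. ZNF395, the third highest, had 34.99% of its exon bases in another gene on the same strand, with the largest overlap in FBXO16. For ZNF511, the ninth, this share was 22.1%, with the largest overlap in the read-through gene ZNF511-PRAP1. In all, 45 members (20.8%) had over 1% of their exon bases in another gene on the same strand. Only 4 of them, the pseudogenes ZNF204P, ZNF252P, ZNF286B and ZNF767P, had over 50% in another gene, in each case a second annotation entry that covers the whole locus. For the remaining 171 members the median level was 0.79, close to the 0.78 of all members.

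GENCODE gives 211 members as protein-coding and 5 as pseudogenes, namely the above 4 and ZNF271P. The pseudogenes were not among the lowest as a group. ZNF271P had a level of 1.94, ZNF767P had 1.69 and ZNF252P had 1.14, whereas ZNF204P had -0.48 and ZNF286B had -0.65. One coding member, ZNF720, has another name, KRBOX5, in GENCODE.

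The canonical protein of each coding member was then searched for C2H2 fingers, defined as 2 cysteines 2 or 4 residues apart and, after 12 residues, 2 histidines 3 to 5 residues apart. At least 1 finger was found in 204 of 211 members (96.7%), with a median of 9 per protein and 1981 in all, whereas the 198 coding ZNF genes on chromosome 19 had a median of 12. ZNF142 had the most with 36, ahead of ZNF462 with 33 and of ZNF236 and ZNF646 with 30 each. The 7 members without a finger of this form were ZNF185, ZNF703, ZNF330, ZNF839, ZNF862, ZNF503 and ZNF720. These span levels from 5.32 for ZNF185 to -0.36 for ZNF720, so that a lack of fingers was not tied to a single level.

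Members with few fingers tended to have higher levels (the plot of levels against fingers). In 44 members with 0 to 4 fingers the median level was 1.58 log2 CPM per kb. It was 0.90 in 71 members with 5 to 9 fingers, 0.33 in 68 with 10 to 14 and 0.47 in 28 with 15 or more, with these bins chosen after the values were seen. Spearman's rho between level and number of fingers was -0.37 over 211 members and -0.13 over the 198 coding ZNF genes on chromosome 19. The points share the same 4 pooled libraries, and the length used for scaling includes the finger exons, so rho is given as a description. Without scaling by length it was -0.30 for the members. Among the proteins with most fingers, ZNF142 had a level of 1.77, ZNF462 had 0.74, ZNF646 had 0.55 and ZNF236 had 0.43, while ZNF521 with 27 fingers was among the 5 lowest. ZNF704 has 1 finger and was nevertheless second from the bottom.

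**Figure D2:**
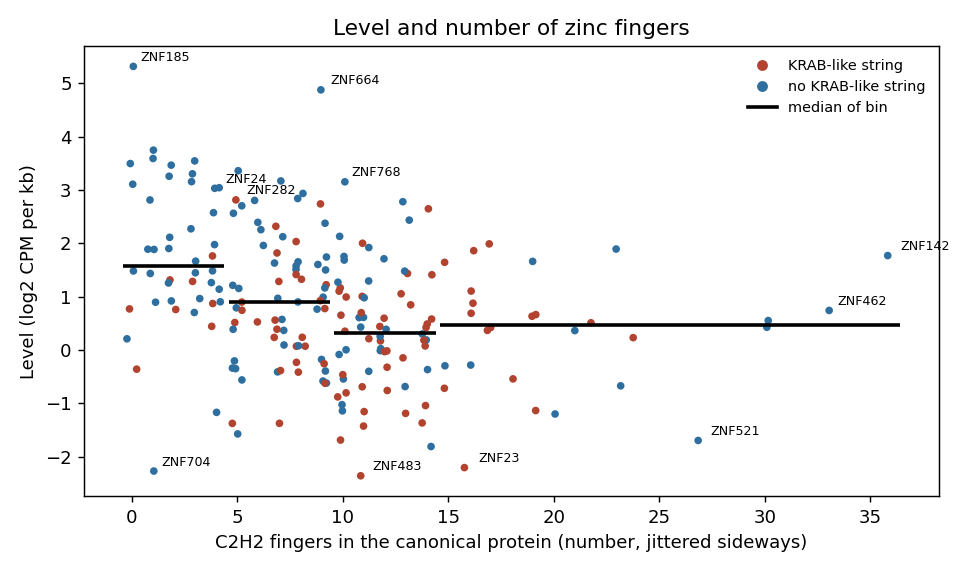
Level (log2 CPM per kb) of the 211 coding members against the number of C2H2 fingers in the canonical protein, with points moved sideways at random within a number so that they can be seen. Red points have a KRAB-like string, blue points do not, and black lines are the medians of 1.58, 0.90, 0.33 and 0.47 for 0 to 4, 5 to 9, 10 to 14 and 15 or more fingers.

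The linker between fingers, searched as a conserved run of 7 residues that starts with the last histidine, was found at least once in 154 members (73.0%). These had a median level of 0.52, whereas the 57 members without one had a median of 1.67. The number of fingers differed as well, with a median of 10 in the former and 4 in the latter. Among members with 10 or more fingers the cut was set at 1 linker in place of none. Of these, 11 had at most 1 linker, with a median level of 0.74, and 85 had at least 2, with a median of 0.37. Their median lengths were 8635 and 5541 bases. Before scaling by length, the medians of mean log2 CPM lay further apart, at 4.35 and 2.71. ZNF142 and ZNF462 are among the 11. Their fingers are mostly not joined by the linker that ZNF664, ZNF107 and ZNF10 show in the last bases of the runs above.

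A KRAB-like string, a pattern of residues around the conserved tryptophan and leucine of the KRAB A box, was found in 90 of 211 coding members (42.7%). On chromosome 19 it was found in 153 of 198 (77.3%), and in other coding genes of the table in 12 of 11195 (0.107%). A string search misses KRAB domains whose sequence has diverged or which the canonical transcript lacks, so that the count is not a count of domains. The 90 members had a median level of 0.50 log2 CPM per kb and the other 121 had a median of 1.26. Of the 20 highest members 1 had the string, ZNF282 at 2.81, and of the 20 lowest 12 did. ZNF777 (2.74), which lies near ZNF282 on chromosome 7, and ZNF316 (2.65) were the next highest.

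The difference between members and ZNF genes on chromosome 19 was smaller when genes with and without the string were taken apart. With the string, the medians were 0.50 off chromosome 19 and 0.24 on it. Without it, they were 1.26 and 1.197. Among members without the string, levels still differed with the number of fingers, with medians of 1.90 for 36 members with 0 to 4 fingers, 1.16 for 43 with 5 to 9, 0.41 for 30 with 10 to 14 and 0.40 for 12 with 15 or more. Spearman's rho between level and fingers was -0.41 over these 121 members and -0.15 over the 90 with the string.

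A fixed list of genes for KRAB repression and related chromatin silencing had a median level of 3.31. The median was 0.50 for the KRAB-like members and 2.49 for all other genes, and the ranges overlapped. Not every listed protein is known here to act with KRAB domains. All 22 genes of the list were in the table, 8 of them below the highest KRAB-like member, ZNF282. Their levels ranged from 1.12 for CHD4 to 7.61 for TRIM28. The RNA of TRIM28, the co-repressor that KRAB domains bind, was thus several log2 units above that of ZNF282. Among the HP1 genes, CBX1 had a level of 5.71, CBX3 had 5.69 and CBX5 had 3.06. The histone methyltransferase SETDB1 had 1.67 and its partner ATF7IP had 1.802. Of the HUSH complex, which silences transposable elements, TASOR had 3.09, MPHOSPH8 had 3.54 and PPHLN1 had 2.04, and the associated MORC2 had 2.64. DNMT1 and UHRF1, which maintain DNA methylation, had 5.60 and 4.67.

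Next, the members with known functions were taken from a list of 30 genes, of which 27 were in the table, with a median level of 1.89. The genes ZNF593, ZNF423 and ZNF711 were not among the rows analysed here. ZNF217, whose gene is amplified in breast tumours and whose product binds co-repressors, had a level of 2.94 and 8 fingers. ZNF24 had 3.03. ZNF143, an activator bound at many promoters, had 1.63, and ZNF148 and ZNF281, which bind GC-rich sequence, had 1.48 and 2.27. Of the 3 related proteins that associate with ZMYND8, ZNF592 had 2.84, ZNF532 had 1.75 and ZNF687 had 1.74.

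ZNF638, an RNA-binding protein, had a level of 1.90, ZNF326 of the DBIRD complex had 1.89 and ZNF451, a SUMO ligase, had 1.69. ZNF131, a BTB domain protein, had 2.56, ZNF318 had 2.11 and ZNF644, which acts with the methyltransferases EHMT1 and EHMT2, had 2.12. ZNF384 had 1.65. Lower on the list, ZNF445, a KRAB protein that acts at imprinted loci, had 0.42, and ZNF292 had 0.19. ZNF516 had 0.01 and ZNF341, a regulator of STAT3 transcription, had -0.08. Of the 27 listed members, 7 were below the median level of all members, namely these 4, ZNF410, ZNF521 and ZNF462.

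The members were spread over 20 chromosomes, with 27 on chromosome 7, 24 on chromosome 16, 16 each on chromosomes 1 and 3 and none on chromosomes 13, 21 and Y (the plot of levels by chromosome). As a share of the genes of the table, they were most frequent on chromosome 18 (4.52%) and on chromosomes 7 and 16 (3.91% each), whereas ZNF genes were 21.4% of the genes on chromosome 19. Among chromosomes with at least 5 members, the median level was highest on chromosome 1 (1.82) and chromosome 15 (1.78) and lowest on chromosome 18 (0.01). None of the 6 members on chromosome 15 had a KRAB-like string, compared with 4 of 16 on chromosome 1 and 1 of 8 coding members on chromosome 18. On chromosome 18 the levels ran from -1.69 for ZNF521 to 3.03 for ZNF24, so the low median stood beside 1 of the highest levels. In each chromosome with more than 10 members, levels ranged over more than 2 log2 units, more than the distance between the highest and lowest of these medians.

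The highest members on chromosomes 5, 8, 9, 10, 12, 16, 17, 18 and X are those named above. Of the others, ZNF672 had 2.78 on chromosome 1, ZNF638 had 1.90 on chromosome 2, ZNF639 had 2.38 on chromosome 3 and ZNF330, a nucleolar protein, had 3.11 on chromosome 4. ZNF76, a relative of ZNF143, had 3.17 on chromosome 6, ZNF202 had 2.03 on chromosome 11, ZNF839 had 1.48 on chromosome 14 and ZNF106 had 3.16 on chromosome 15. ZNF512B had 3.04 on chromosome 20, and ZNF74 had -0.03 on chromosome 22, where ZNF70 was the only other member. On chromosome 7 the highest was ZNF282 (2.81). Chromosomes 2, 11, 14 and 22 were thus those without a member above the median level of all other genes, 2.49, together with chromosome 3.

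**Figure D3:**
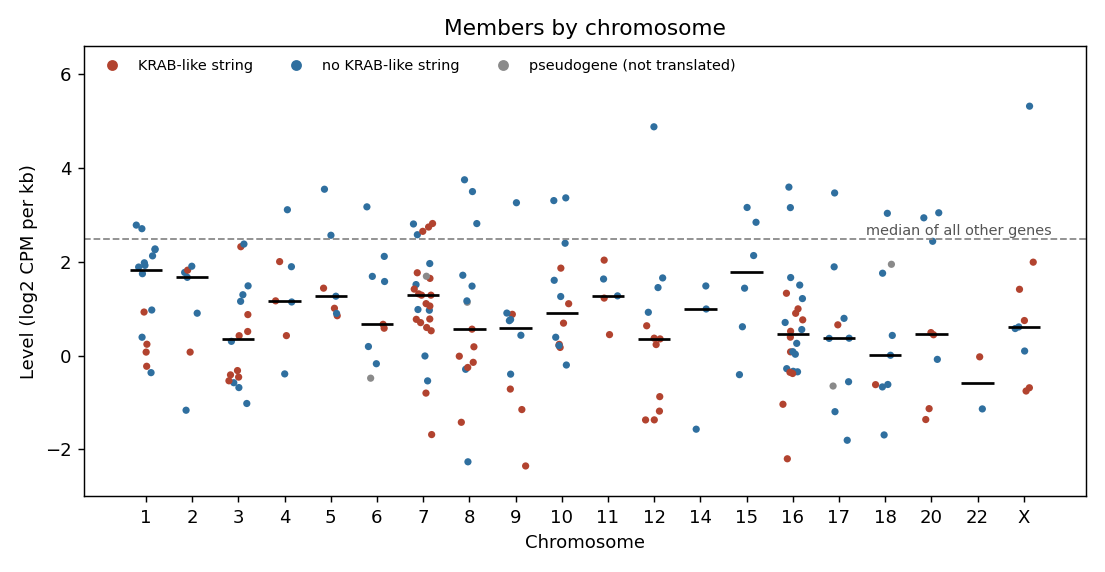
Level (log2 CPM per kb) of each of the 216 members by chromosome, with black lines at the medians per chromosome and a dashed line at the median of all other genes, 2.49. Red points have a KRAB-like string, blue points do not and grey points are pseudogenes. On every chromosome most points lie below the dashed line. Those above it include ZNF185 on X, ZNF664 on 12 and ZNF282 and ZNF777 on 7.

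Members were called clustered when at least 3 followed each other with gaps of at most 500 kb. By this rule 95 members fell into 19 clusters, 22 formed 11 pairs and 99 stood alone. Only members counted as neighbours. The 52 coding ZNF genes off chromosome 19 that were not rows, and zinc finger genes with other names, did not count. Whether a member was called clustered therefore depended in part on which genes are rows, and one that stood alone can have such a gene beside it. Clustered members had a median level of 0.70 and the others a median of 0.90, a difference of -0.20. Without scaling by length the difference was -0.51. The KRAB-like string was found in 58 of 91 clustered coding members (63.7%) and in 32 of 120 others (26.7%). Taken apart by the string, clustering went with level in opposite directions. With the string, 58 clustered members had a median of 0.62 and 32 outside clusters had 0.02. Without it, 33 clustered members had 0.77 and 88 outside clusters had 1.27.

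The 2 largest clusters had 10 members each and differed in level (the plot of levels by cluster). On chromosome 16, a cluster from 30378106 to 31084196 had a median of 0.47 and held 27 genes of the table in all. Its levels were high for ZNF768 (3.15), with ZNF629 (1.66), ZNF689 (0.99), ZNF688 (0.76), ZNF646 (0.55), ZNF764 (0.39) and ZNF48 (0.26) in between. ZNF771 (0.08), ZNF668 (-0.28) and ZNF785 (-0.38) were the lowest. ZNF768 thus stood apart from its neighbours in level, with a length of 2369 bases and 10 fingers. Before scaling by length, ZNF768 and ZNF629, which has 6083 bases, were close, with mean log2 CPM of 4.398 and 4.267. ZNF646 followed with 3.66.

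On the long arm of chromosome 7, a cluster from 149069641 to 149867479 had a median of 1.49, the highest of the clusters with more than 4 members, and 10 of the 13 genes of the table in it were members. ZNF282 (2.81), ZNF777 (2.74) and ZNF212 (2.58) had the highest levels, followed by ZNF783 (1.76), the pseudogene ZNF767P (1.69), ZNF746 (1.29), ZNF398 (1.29) and ZNF786 (1.06). ZNF862 (0.77), in which no finger was found, and ZNF467 (-0.01) had the lowest. The number of fingers was 3 in ZNF746 (PARIS), 4 in ZNF212 and ZNF783, 5 in ZNF282, 7 in ZNF398, 9 in ZNF777, 12 in ZNF467 and 13 in ZNF786.

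The third cluster, from 64045434 to 65401136 on chromosome 7, is near the centromere and is the longest, with 8 members over 1356 kb. Its median level was 0.65. ZNF138 (1.31), ZNF107 (1.11), ZNF736 (0.78), ZNF92 (0.70) and ZNF680 (0.60) were above 0, and ZNF117 (-0.54), ZNF273 (-0.80) and ZNF727 (-1.69) were below it. The KRAB-like string was found in 7 of the 8, all but ZNF117. These 2 clusters, the largest of 3 on chromosome 7, differed by 0.84 in median level, and their ranges overlapped.

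In 1 cluster of 7, from 132918306 to 133214832 at the end of the long arm of chromosome 12, no other gene of the table lay wholly within the span, and the KRAB-like string was found in all. The levels ran from 0.63 for ZNF84 to -1.37 for ZNF891, with a median of 0.23. ZNF10 (KOX1), whose KRAB domain is widely used to silence genes in engineered repressors, had -0.88. ZNF26, the longest member of all with 20862 bases, had -1.19. The 3 ZNF354 genes on chromosome 5, in contrast, lay close together in level, with 1.44 for ZNF354A, 1.01 for ZNF354C and 0.85 for ZNF354B. As ZNF354B shared 10.5% of its windows with ZNF354A, their reads cannot be fully told apart.

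**Figure D4:**
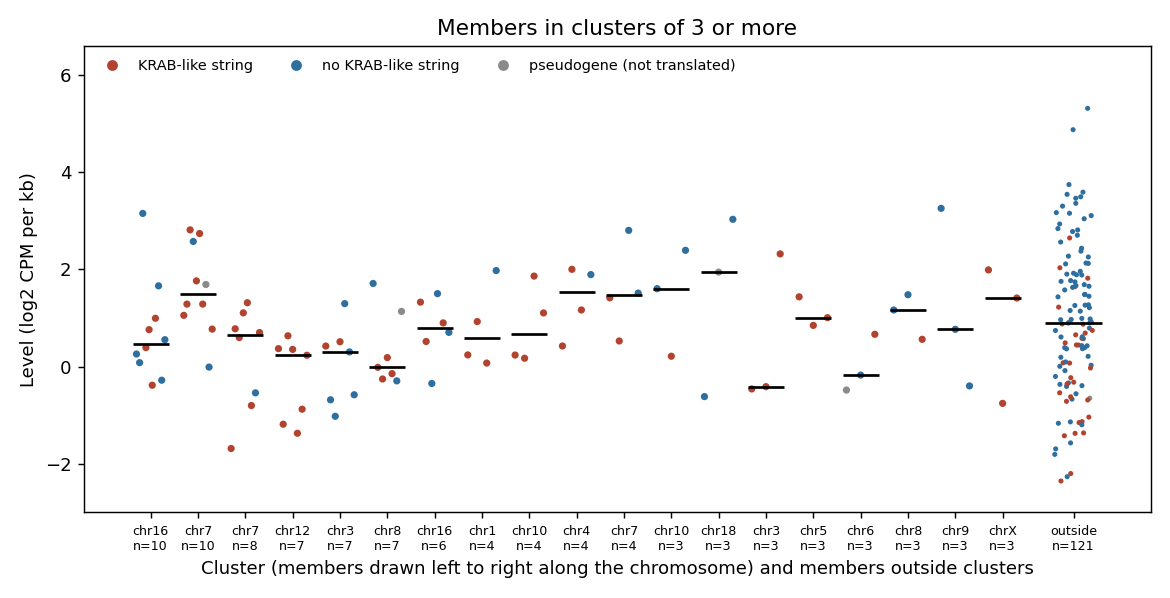
Level (log2 CPM per kb) of members in each of the 19 clusters of 3 or more, ordered by size and drawn along the chromosome from left to right, and of the 121 members outside clusters, with black lines at the medians. Red points have a KRAB-like string, blue points do not and grey points are pseudogenes. Levels within a cluster differ by up to several log2 units, as for ZNF768 at 3.15 among its neighbours on chromosome 16. Before scaling by length, ZNF768 was close to ZNF629 of the same cluster.

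The median length in the table was 5912 bases for members, 5425.5 for ZNF genes on chromosome 19 and 4804 for all other genes. The shortest members were ZNF32 with 1460 bases and ZNF622 with 1707, and the longest were ZNF26 with 20862 and ZNF827 with 19123 (the plot of length and mean expression). ZNF32 had a mean log2 CPM of 2.94 and a level of 2.39, and ZNF827 had a mean log2 CPM of 3.87 and a level of -0.39, so that scaling by length reversed their order. Over the members, Spearman's rho of length was 0.37 with mean log2 CPM and -0.13 with level, and over all other genes rho of length with mean log2 CPM was 0.24. The coding length of the canonical transcript had a median of 1737 bases in members and 1743 on chromosome 19, and the median length of the 3′ UTR in the canonical transcript was 1774 and 1825 bases.

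**Figure D5:**
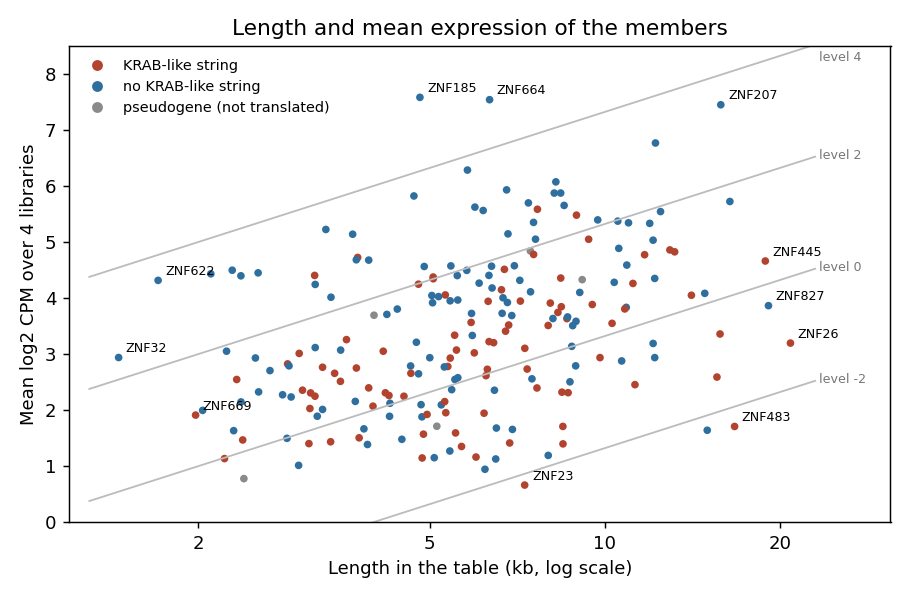
Mean log2 CPM over the 4 libraries against the length of each of the 216 members in the table (kb, log scale), with grey lines of equal level (log2 CPM per kb). ZNF26 at 20862 bases and ZNF622 at 1707 bases differ less in mean log2 CPM than in level, and ZNF185, ZNF664 and ZNF207 are highest on the vertical axis.

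Promoter sequences (RefSeq, GRCh38.p14, from 250 bases before to 50 after the start) were matched by symbol for 177 of the 216 members. Their median GC content was 62.7% with 24 CpG dinucleotides, compared with 60.2% and 20 for 180 ZNF genes on chromosome 19 and 65.7% and 27 for 9409 other genes of the table. The letters CCGGAAG, the core of ETS sites, were found on either strand in 39.5% of the members' promoters, in 47.2% on chromosome 19, in 19.3% of the other genes of the table and in 10.7% of all 27305 promoters. ATTGG, the CCAAT box read on the other strand, was in 43.5%, 53.9%, 36.6% and 35.7% in the same order. GGGCGG, a GC box, was in 63.8%, 66.1%, 71.3% and 44.6%, and TATAAA was in 3.95%, 2.22%, 5.34% and 11.95%. TGACGTCA, the full cAMP response element, was in 4.52%, 3.89%, 3.31% and 1.98%, again in the same order. GCCATNTTG, a YY1 motif, was in 6.21%, 6.11%, 5.57% and 3.04%. None of these motifs contains another on either strand, and a match says only that the letters are present.

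GENCODE lists 262 coding genes of this naming off chromosome 19, of which 210 were rows of the table by identifier. The other 52 were not analysed here, and the KRAB-like string was found in 18 of them (34.6%). The cell line was checked against marker genes. All 7 mesenchymal markers expected in MDA-MB-231 were in the table, with levels from 2.34 for ZEB1 to 8.65 for AXL. Of 9 luminal and epithelial genes, ESR1 and PGR were not among the rows, CDH1 had a level of 1.07 and FOXA1 had 0.19. The other 5 were not low, with levels of 2.40 for EPCAM, 2.72 for GATA3, 3.13 for ERBB2, 6.33 for KRT8 and 6.50 for KRT18. The leukocyte and endothelial genes PTPRC, CD3E, CD68, PECAM1 and VWF were not among the rows.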

How the data were processed

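The authors sequenced RNA of MDA-MB-231 Fluc cells, from 2 cordycepin and 2 DMSO samples, as 75 bp paired-end reads from stranded, ribosomal RNA-depleted libraries. Reads were mapped to GRCh38.p13 and counted with rsubread, and the submitters' processing notes also name TopHat, HTSeq, DESeq, Cufflinks and hg38. The deposited table gives the authors' mean log2 CPM per gene, pooled over the 4 libraries, and gene lengths. It also holds the authors' log2 fold change, F statistic, p-value and adjusted p-value of cordycepin against DMSO, which were not used. Further columns with values of single samples numbered 0, so no test, SD or depth per library could be given. The normalization, the filter on low counts and the treatment of reads shared by genes are not given in the sources used here.

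Levels were mean log2 CPM minus log2 of the length in kb. GENCODE release 44 gave gene types, exons and canonical proteins, in which patterns were counted after the search was tested on simulated data. Start and end equalled those of GENCODE for 178 of 216 members, and the length equalled the GENCODE exon union for 159. The members and lists were chosen with earlier results of these data known. Genes named are the 10 highest and 5 lowest by level, the highest per chromosome, members of the 3 largest clusters, those with most or no fingers, the 2 longest and shortest, and the fixed lists. Other genes were named after their values were seen. Alternatives changed the length used, the genes kept, the gap within clusters and the patterns. Python 3.11.15, numpy 2.4.6, pandas 2.3.3 and matplotlib 3.10.9 were used.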

Additional observations from a re-analysis of the deposited data

How the results depend on the processing

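The number of members (212 without symbols ending in P), the members in clusters (82 with a largest gap of 250 kb, 104 with 1000 kb), the median number of fingers (9 with a wider finger pattern) and the share with a KRAB-like string (44.5% with a relaxed pattern) changed little, and no difference changed sign under the alternatives tried. The median level of members was 0.78, and was 3.30 without length scaling, 1.06 with the longest transcript, 2.47 with the coding length, 1.49 for genes above the lowest 25% of mean log2 CPM and 0.77 without symbols ending in P. Its difference from ZNF genes on chromosome 19, 0.45, was 0.32 with the longest transcript, 0.38 with the coding length, 0.24 above the lowest 25% and 0.44 without symbols ending in P. Its difference from all other genes, -1.72, was -1.34 without length scaling, -1.84 with the longest transcript, -2.0004 with the coding length and -1.61 above the lowest 25%. The difference between clustered and other members, -0.20, was -0.51 without length scaling, -0.25 with a largest gap of 250 kb and -0.28 with 1000 kb. The difference between members with and without a KRAB-like string, -0.76, was -0.96 without length scaling and -0.80 with the relaxed pattern. The following alternatives were chosen after seeing the data. In members with at most 1% of windows shared, the median level was 0.76, the KRAB difference -0.69 and rho of level with fingers -0.38. In the 171 members with at most 1% of exon bases in another gene, the median level was 0.79, the KRAB difference -0.71, the cluster difference -0.24 and rho -0.39. With the coding length, the KRAB difference was -0.60 and rho -0.46, and without length scaling rho was -0.30. Why these values moved was not tested. No paired analysis was possible because each value is a mean over all 4 libraries, and for the same reason no library could be left out. Depth and the spread between duplicates limit the precision by an amount that is unknown.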
